A study of Mus musculus with 3 samples.

Results

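Osteoclast acid-resorption genes are the genes through which an osteoclast, the multinucleated cell that dissolves bone, is formed, recognised and supplied with acid. Of the 55422 genes in the deposited tables, 10 were taken by their symbols: *Acp5*, *Atp6v0d2*, *Tcirg1*, *Clcn7*, *Ostm1*, *Car2*, *Ocstamp*, *Dcstamp*, *Oscar* and *Calcr*. Their transcripts, counted as unique molecular identifiers (UMIs, each standing for 1 captured molecule), were followed in septoclasts (SCs), in macrophages, in cells with at least 20 *Acp5* UMIs and in the other cell populations of growing mouse bone.

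The study asked which cells remove cartilage at the growth plate of long bones, and used single-cell RNA sequencing of untreated C57BL/6 mice at 3 weeks of age. There were 2 libraries of metaphyseal stromal cells, depleted with beads of cells with blood lineage markers, CD45 or CD117, and 1 library of cells sorted for green fluorescence from *Pdgfra-GFP* reporter mice. In the latter a nuclear H2B-GFP reports *Pdgfra*, and their cells came from the metaphysis and epiphysis of femur and tibia. Both procedures remove most blood cells, osteoclasts among them, so shares of such cells describe these suspensions and not bone. No source says whether the metaphyseal libraries came from separate animals. The p-values below measure only how population sums vary over these libraries, once shifts common to a library are removed. That spread was estimated over all gated populations and may be technical.

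A resorbing osteoclast seals off a patch of bone and acidifies it. Carbonic anhydrase II makes the protons, a vacuolar proton pump (V-ATPase) with its own a3 and d2 subunits moves them across the ruffled membrane, and a chloride and proton exchanger balances the charge. Proteases such as cathepsin K then digest the exposed collagen. SCs are mononuclear stromal cells at the chondro-osseous border that carry matrix proteases, and the question here was which parts of the osteoclast acid machinery their transcripts include.

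The 3 libraries held 25243314, 22082735 and 91747759 UMIs, and 2389, 2011 and 11319 cells passed the filters on genes, mitochondrial and ribosomal UMIs, 15719 cells in all. Cells with at least 20 *Acp5* UMIs were set apart first, so no other population holds such a cell. The rest were gated on markers that include none of the 10 genes. By *Sstr2*, *Cd55*, *Otos*, *Egfr*, *Fbln1* and *Cotl1*, 12, 10 and 204 cells were gated as SCs. A further 7.28%, 7.51% and 16.4% of cells matched no gate. The metaphyseal libraries shared no cell barcode with each other and shared 9 and 10 with the *Pdgfra-GFP* library. Near-empty barcodes, with at most 50 UMIs, held 6.50% to 9.15% of each library's UMIs and show the RNA that was free in the suspension.

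The positions of the genes are given in GRCm38. All are protein coding. *Acp5* lies on chr9:22126727-22135711, *Atp6v0d2* on chr4:19876841-19922605, *Ocstamp* on chr2:165393760-165400405, *Oscar* on chr7:3609813-3616157, *Tcirg1* on chr19:3896050-3907133 and *Calcr* on chr6:3685680-3764714, all on the minus strand. *Car2* lies on chr3:14886273-14900770, *Clcn7* on chr17:25133391-25162104, *Dcstamp* on chr15:39745930-39760938 and *Ostm1* on chr10:42583822-42702459, all on the plus strand. *Acp5* and *Ostm1* each overlap an annotated gene on the other strand (*6530413G14Rik* and *Gm15200*).

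Promoters are shown for *Acp5* and *Oscar*, whose UMIs were gathered in a few cells, and for *Tcirg1* and *Clcn7*, whose UMIs lay mostly outside them, in many populations. Each is the 250 bases before a RefSeq transcription start (GRCm38.p6), read on the gene's own strand, in a window that holds no annotated exon. The capitals in *Clcn7* mark CACGTG, the palindromic E-box of the MiT family of transcription factors, to which the osteoclast factor MITF belongs.
Acp5, chr9:22131866-22132115, minus strand: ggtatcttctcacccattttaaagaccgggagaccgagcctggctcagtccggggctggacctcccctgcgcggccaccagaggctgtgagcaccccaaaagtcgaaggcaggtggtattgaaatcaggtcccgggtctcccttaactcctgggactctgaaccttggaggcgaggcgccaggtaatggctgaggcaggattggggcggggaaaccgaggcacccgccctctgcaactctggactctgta
Oscar, chr7:3616158-3616407, minus strand: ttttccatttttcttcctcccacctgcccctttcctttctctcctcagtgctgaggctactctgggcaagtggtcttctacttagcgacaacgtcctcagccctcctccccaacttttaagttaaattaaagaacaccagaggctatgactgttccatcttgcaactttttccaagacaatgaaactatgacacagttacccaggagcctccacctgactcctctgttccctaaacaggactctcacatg
Tcirg1, chr19:3907134-3907383, minus strand: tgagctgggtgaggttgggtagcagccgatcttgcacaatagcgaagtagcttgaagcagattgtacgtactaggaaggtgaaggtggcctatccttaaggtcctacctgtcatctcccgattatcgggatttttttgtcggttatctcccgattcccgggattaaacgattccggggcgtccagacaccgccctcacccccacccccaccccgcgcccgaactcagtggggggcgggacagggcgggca
Clcn7, chr17:25133141-25133390, plus strand: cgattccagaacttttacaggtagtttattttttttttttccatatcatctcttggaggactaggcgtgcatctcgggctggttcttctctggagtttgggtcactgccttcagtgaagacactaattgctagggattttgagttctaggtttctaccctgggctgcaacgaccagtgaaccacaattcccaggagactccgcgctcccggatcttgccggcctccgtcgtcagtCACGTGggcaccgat

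Of 32851 such windows, 6.02% held CACGTG and 3.25% held CACATGA on either strand, the other E-box searched for. RefSeq entries were found for 6 of the 10 genes. Beside the window shown, *Clcn7* had CACATGA before a second start (chr17:25136381-25136630) and *Acp5* before another of its 3 starts (chr9:22130599-22130848). The windows listed for *Oscar*, *Ostm1*, *Tcirg1* and *Calcr* held neither. A match is a description of the letters and not a binding site.

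The 10 genes fell into unlike distributions. In kept cells *Acp5*, which encodes tartrate-resistant acid phosphatase, the classical stain for osteoclasts, had 6628 UMIs, and *Atp6v0d2*, the d2 subunit of the pump, had 353. *Ocstamp* and *Dcstamp*, membrane proteins needed for precursors to fuse, had 153 and 50 UMIs. *Oscar*, the osteoclast-associated collagen receptor, had 42, and *Calcr*, the calcitonin receptor, had 3. By number of cells, *Acp5* had UMIs in 1308 of 15719. *Atp6v0d2*, *Ocstamp*, *Dcstamp*, *Oscar* and *Calcr* had them in 54, 44, 19, 24 and 2 cells. *Tcirg1* (the a3 subunit of the pump) had UMIs in 2502 cells and *Clcn7* (the chloride and proton exchanger) in 1136. *Ostm1* (the β subunit of that exchanger) had them in 1182 and *Car2* (carbonic anhydrase II) in 1955. *Acp5* was thus seen in more cells than *Clcn7* or *Ostm1*.

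Only 25 cells reached the 20 *Acp5* UMIs set as the limit, and they are called Acp5-high cells below. They were 24 of 11319 cells of the *Pdgfra-GFP* library, which is 0.212% (95% exact binomial interval 0.136% to 0.315%), and 1 of 2389 cells of metaphyseal library 1. None was found among 2011 cells of metaphyseal library 2, which allows a share of up to 0.149%. Just inside the limit lay cells with 27, 30, 30 and 32 *Acp5* UMIs. Just outside it lay 2 macrophages with 19 and 18, a *Lepr*+ stromal cell with 16 and an ungated cell with 12. The limit is on UMIs without regard to depth, so deep cells reach it more easily. Acp5-high cells of the *Pdgfra-GFP* library had a median of 12978 UMIs, and all kept cells of that library 5354.

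Acp5-high cells held 0.302% of all UMIs of kept cells, yet most of the UMIs of 5 further genes. They held 319 of the 353 *Atp6v0d2* UMIs (90.4%, 95% exact binomial interval 86.8% to 93.2%), 125 of 153 *Ocstamp* UMIs (81.7%, 74.6% to 87.5%) and 44 of 50 *Dcstamp* UMIs (88%, 75.7% to 95.5%). For *Oscar* they held 29 of 42 UMIs (69.0%, 52.9% to 82.4%), and for *Calcr* all 3. The 71.8% of *Acp5* UMIs in these cells follows from how they were chosen and is a description only. Intervals on UMIs cover counting error alone.

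For the other 4 genes most UMIs lay outside Acp5-high cells, although their shares there were above the 0.302% of all UMIs. These cells held 3.75% of *Tcirg1* UMIs, 2.64% of *Clcn7*, 0.876% of *Ostm1* and 1.05% of *Car2* UMIs. *Car2* was gathered elsewhere: 75 erythroid cells, which held 0.670% of all UMIs, held 4299 of its 8117 UMIs (53.0%, 51.9% to 54.1%). The 226 SCs held 1.95% of all UMIs and 3.70% of *Car2* UMIs, 2.74% of *Tcirg1*, 2.06% of *Clcn7* and 1.91% of *Ostm1*, against 0.272% of *Acp5* UMIs. *Lepr*+ stromal cells held 22.6% of all UMIs but 35.1% of *Tcirg1*, 36.7% of *Clcn7* and 40.8% of *Ostm1* UMIs. OBs held 18.4% of all UMIs and 6.39%, 8.92% and 6.53% of these genes.

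**Figure D1:**
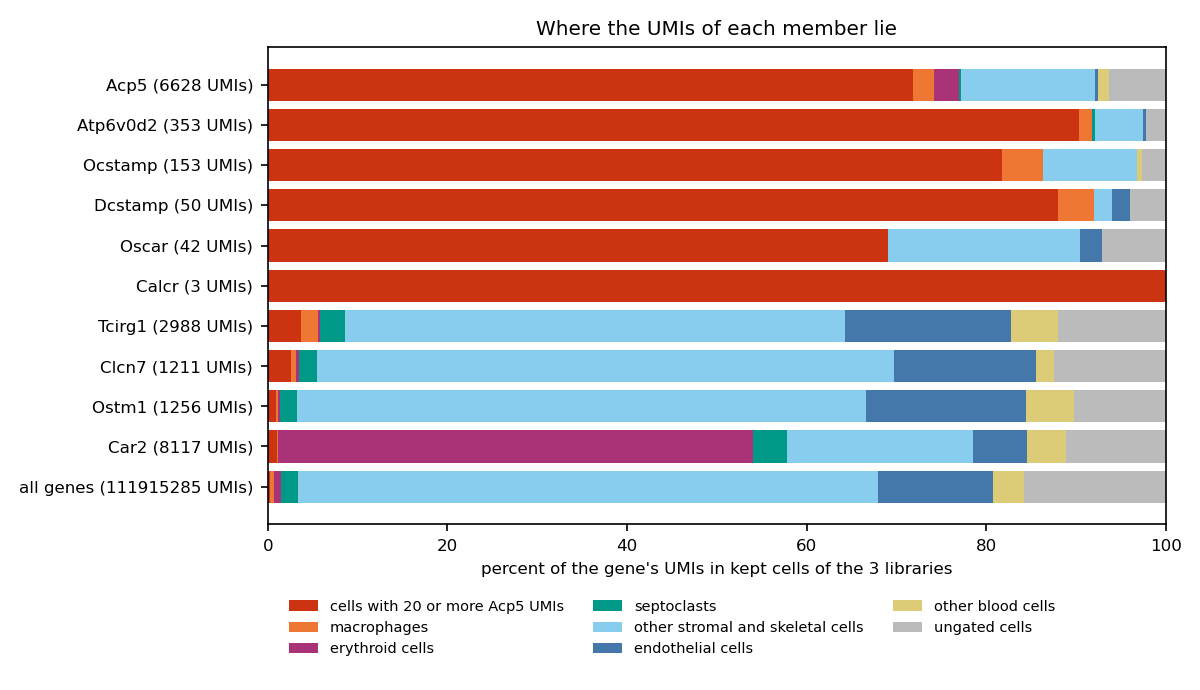
Stacked bars give, for each gene and for all genes together, the percent of its UMIs in kept cells of the 3 libraries that lay in each population. *Acp5*, *Atp6v0d2*, *Ocstamp*, *Dcstamp*, *Oscar* and *Calcr* lay mainly in the 25 Acp5-high cells (red), *Car2* mainly in erythroid cells (purple), and *Tcirg1*, *Clcn7* and *Ostm1* mainly in other stromal and skeletal cells and ECs (blue).

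Acp5-high cells were then compared with the osteoclast markers that had not chosen them. Their total UMIs ran from 3137 to 29417 with a median of 13320. *Atp6v0d2* was seen in 24 of 25 cells, with 0 to 43 UMIs and a median of 9. *Ctsk*, encoding cathepsin K, was seen in 22 cells with a median of 53 and a highest value of 413 UMIs, and *Mmp9*, a gelatinase, in 20 cells with a median of 26. *Nfatc1*, the master transcription factor of osteoclast formation, was seen in 22 cells, *Tnfrsf11a*, the receptor RANK, in 20 and *Itgb3*, the β3 integrin, in 9. *Siglec15*, a further osteoclast surface protein, had no UMI in any.

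Adaptor and receptor genes of the myeloid lineage were also present. *Tyrobp* was seen in 24 cells with a median of 45 UMIs and *Csf1r*, the receptor for macrophage colony-stimulating factor, in 23 with a median of 8. Of the other 4 macrophage markers, *C1qb* was seen in 5 cells with at most 6 UMIs and *C1qc* in 3 with at most 3, while *C1qa* and *Adgre1* had 0 UMIs in all 25. The stromal gene *Pdgfra* and the SC gene *Sstr2* also had none. H2B-GFP, for which the *Pdgfra-GFP* library was sorted, had UMIs in 2 of the 24 Acp5-high cells of that library. How often it was seen in other sorted cells is not given here, so no lack of the reporter is read from this. *Col1a1*, the main collagen of osteoblasts, had 1 to 93 UMIs in every cell, and its part in the values was not tested. No Acp5-high cell was called a doublet.

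The remaining genes varied within these cells. *Tcirg1* was seen in 21 cells with 0 to 16 UMIs and a median of 3, *Ocstamp* in 19 with 0 to 20 and a median of 4, and *Car2* in 18 with 0 to 22 and a median of 1. *Clcn7* and *Dcstamp* were each seen in 14 cells and reached 5 and 7 UMIs. *Oscar* was seen in 11 and *Ostm1* in 8, with medians of 0. The 3 *Calcr* UMIs lay in 2 cells.

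The cells were not all alike. In the cell with most *Ctsk*, 539 *Acp5* UMIs stood beside 413 of *Ctsk*, 18 of *Atp6v0d2*, 16 of *Tcirg1* and 13 of *Ocstamp*. At the other end, 3 cells had 32, 30 and 27 *Acp5* UMIs and 7, 7 and 8 of *Atp6v0d2*, with 32, 33 and 52 of *Tyrobp* and none of *Ctsk*. In 1 cell, with 30 *Acp5* UMIs and 93 of *Col1a1*, neither *Tyrobp* nor *Atp6v0d2* was detected, and by its markers it passed the gate for fibroblasts. Another cell, with 224 *Acp5* and 176 *Ctsk* UMIs, passed the gate for *Lepr*+ stromal cells. The single cell from the metaphyseal libraries had 121 *Acp5* UMIs, 9 of *Atp6v0d2*, 22 of *Car2* and 11 of the proliferation gene *Mki67*. That cell also had 9 UMIs over 2 erythroid markers, where the 24 Acp5-high cells of the *Pdgfra-GFP* library together had 1. The part of erythroid RNA in its *Car2* was not tested. Across the 25 cells, which share depth as a factor, the rank correlation of CPM with *Acp5* was 0.86 for *Ctsk*, 0.85 for *Tcirg1*, 0.84 for *Ocstamp*, 0.72 for *Clcn7*, 0.59 for *Atp6v0d2* and 0.36 for *Ostm1*. CPM is a gene's UMIs per 1000000 UMIs of the same cell or sum of cells. For the other osteoclast markers the correlation was 0.86 for *Mmp9*, 0.52 for *Nfatc1*, 0.50 for *Itgb3* and -0.02 for *Tnfrsf11a*. For *Mki67*, seen in 6 of the 25 cells, it was -0.44. *Acp5* chose the cells, 24 of them come from 1 library, and cells are not replicates, so these values are a description only.

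**Figure D2:**
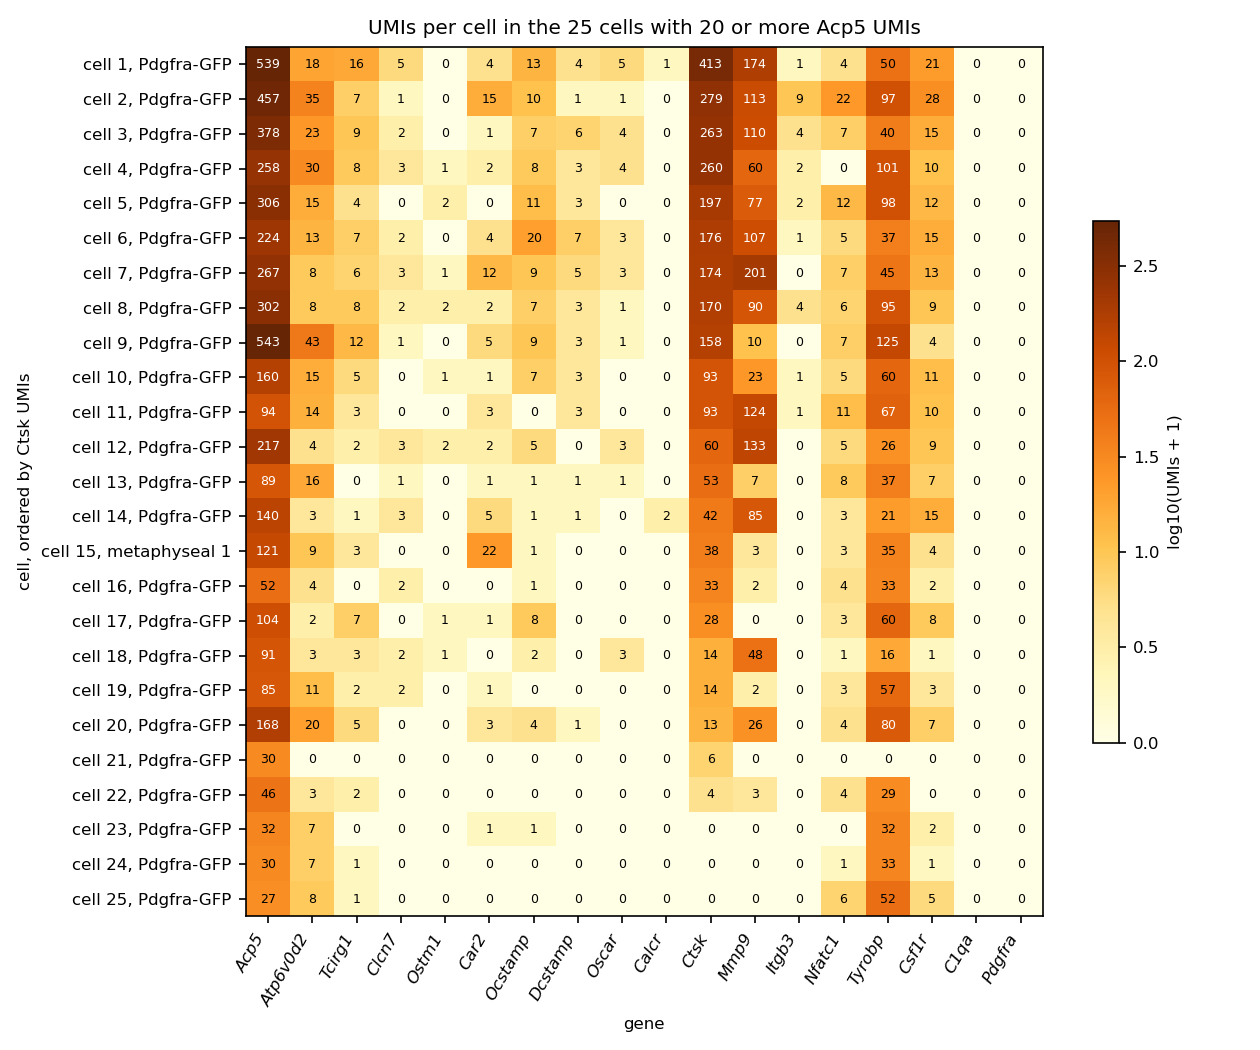
Each line is 1 of the 25 Acp5-high cells, ordered by *Ctsk* UMIs, and each column a gene. The number printed is the UMI count and the shade its log10(UMIs + 1). *Acp5* was used to choose the cells. *Atp6v0d2* and *Tyrobp* were each seen in 24 cells, *Ctsk* in 22, *Csf1r* in 23, and *C1qa* and *Pdgfra* in none. The macrophage markers *C1qb* and *C1qc*, which are not drawn, were seen in 5 and 3 cells.

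Levels were next compared between populations of the *Pdgfra-GFP* library, the only one with at least 10 macrophages or erythroid cells. UMIs were summed over the cells of a population and given as CPM with an exact 95% Poisson interval. These comparisons rest on 1 library, so they have no replicate check and no test. The sequences come from the 3′ end of transcripts, and levels are compared between populations for 1 gene at a time.

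*Acp5* reached 318 CPM (271 to 372) in 75 macrophages and 283 CPM (241 to 331) in 60 erythroid cells, against 15059 CPM in the Acp5-high cells that it defined. Lower were B lineage cells with 88.5 CPM, fibroblasts with 51.6, mast cells and basophils with 36.8 (10.0 to 94.3), monocytes with 35.7 (19.0 to 61.0), late OBs and osteocytes with 27.7 (13.8 to 49.5) and OBs with 24.7 (22.3 to 27.2), of which the last 4 had overlapping intervals. SCs had 9.34 CPM (5.53 to 14.8), metaphyseal mesenchymal stromal cells (mpMSCs) 10.9 (8.61 to 13.6) and *Lepr*+ stromal cells 8.42 (7.09 to 9.93). With Acp5-high cells set apart, these 3 could not be ordered beyond counting error. The *Lepr*+ value leaves out an Acp5-high cell with 224 *Acp5* UMIs that passed the *Lepr*+ gate. The fibroblast value leaves out 1 with 30 that passed the fibroblast gate. Near-empty barcodes of the library had 99.4 CPM of *Acp5*. This was above the level in SCs and in each population named so far other than Acp5-high cells, macrophages and erythroid cells. Erythroid cells of the metaphyseal libraries, 8 and 7 in number, had 223 and 37.0 CPM.

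*Tcirg1* was highest in Acp5-high cells at 354 CPM (291 to 427). Macrophages had 101 CPM (75.3 to 134), monocytes 74.1 and granulocyte-monocyte progenitors 49.2. SCs had 37.4 CPM (29.2 to 47.0), *Lepr*+ cells 37.7 (34.8 to 40.8) and mpMSCs 32.5 (28.4 to 36.9), with overlapping intervals. OBs had 7.24 CPM (5.99 to 8.67) and chondrocytes 7.12, and neither interval reached that of SCs.

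*Clcn7* and its partner *Ostm1* were low in the populations named here outside Acp5-high cells. *Clcn7* had 104 CPM (71.1 to 147) in Acp5-high cells, 17.6 in *Lepr*+ cells, 12.5 (7.98 to 18.5) in SCs, 10.9 in mpMSCs, 10.1 in macrophages and 5.26 (4.20 to 6.50) in OBs. *Ostm1* had 35.7 CPM (17.8 to 63.9) in Acp5-high cells, 16.8 in *Lepr*+ cells, 14.0 in mpMSCs, 11.9 (7.56 to 17.9) in SCs, 6.09 in macrophages and 3.46 (2.62 to 4.50) in OBs. The levels of both genes in macrophages rested on 5 and 3 UMIs. That of *Ostm1* in Acp5-high cells rested on 11 UMIs in 8 cells. Its interval held the highest values of any library for *Lepr*+ cells (29.8 CPM) and monocytes (24.4 CPM).

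*Car2* had 6026 CPM (5825 to 6233) in erythroid cells, which use it to hydrate carbon dioxide. Acp5-high cells followed among the populations named here with 205 CPM (157 to 262) and SCs with 149 (132 to 167). *Car2* was lower in ECs, with 41.3 CPM, in OBs, with 36.4, in mpMSCs, with 24.7, in macrophages, with 10.1 (3.29 to 23.7), and in chondrocytes, with 4.86. Erythroid cells of the metaphyseal libraries had 5097 and 4700 CPM. SCs there had 34.9 and 69.8 CPM, below the highest values of B lineage cells (246 CPM) and monocytes (265 CPM). The B lineage value, in metaphyseal library 2, had 50 of its 73 UMIs in 1 cell. The monocyte value, in metaphyseal library 1, had 47 of its 65 UMIs in 1 cell. Near-empty barcodes had 180 CPM in the *Pdgfra-GFP* library, which is above SCs, and 139 and 111 CPM in the others.

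**Figure D3:**
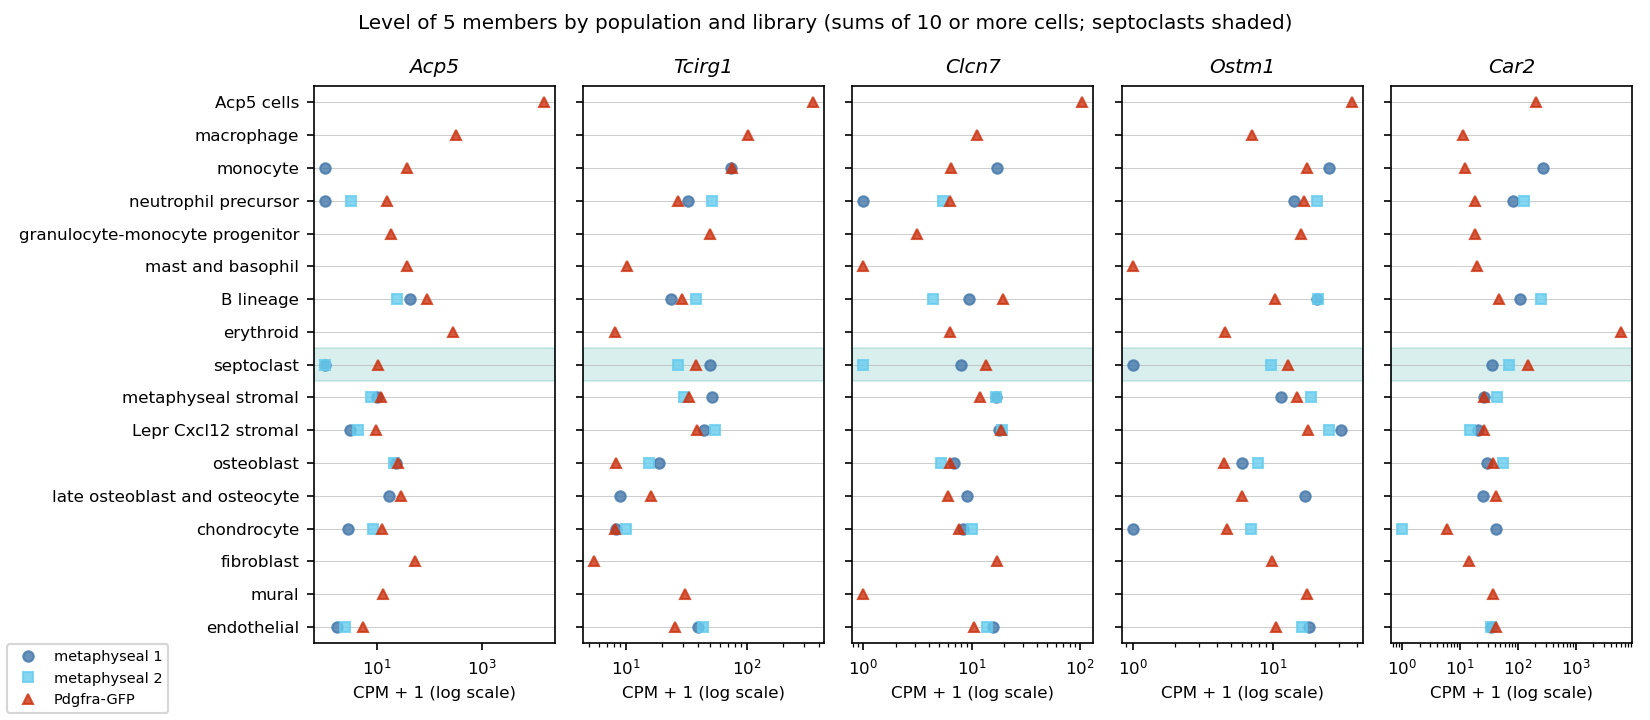
Level of 5 genes, as CPM + 1 on a log axis, in each population with at least 10 cells, 1 point per library, with SCs shaded. *Acp5* in the *Pdgfra-GFP* library ran in the order Acp5-high cells (15059 CPM), macrophages (318 CPM) and SCs (9.34 CPM), and *Car2* was highest in erythroid cells (6026 CPM).

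In SCs *Atp6v0d2* had 1 UMI in metaphyseal library 1 and 0 in the other 2, where 0 among 204 cells of the *Pdgfra-GFP* library allows up to 1.56 CPM. *Ocstamp*, *Dcstamp*, *Oscar* and *Calcr* had no UMI in any of 226 SCs. The sets of metaphyseal SCs were small, and 0 UMIs in them allows up to 20.9 and 26.2 CPM. Outside Acp5-high cells and macrophages, *Atp6v0d2* did not exceed 6.98 CPM in any gated sum, a value that was the single UMI in SCs.

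Against SCs of the same library, Acp5-high cells had 9.47 times the *Tcirg1* level (95% interval 6.97 to 12.9), 8.34 times the *Clcn7* level (4.76 to 14.8) and 2.99 times the *Ostm1* level (1.32 to 6.39). For *Car2* the ratio was 1.37 (1.03 to 1.81). *Atp6v0d2* was at least 646.5-fold higher, *Ocstamp* at least 258.6-fold and *Dcstamp* at least 91.8-fold, with 3 UMIs over the SC sum taken as the limit for a count of 0. *Oscar* was at least 60.5-fold higher by the same limit.

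Macrophages differed from SCs in 3 of the 5 genes that had at least 20 UMIs in both sums together. *Acp5* was 34.1-fold higher in macrophages (20.9 to 59.0) and *Tcirg1* 2.71-fold higher (1.85 to 3.95), while *Car2* was at 0.0681 of its SC level (0.0219 to 0.161). Among 8867 genes so compared, 12.0% were at least 2-fold higher and 29.2% at least 2-fold lower in macrophages. *Clcn7* and *Ostm1* had ratios of 0.814 (0.243 to 2.18) and 0.510 (0.0980 to 1.69), whose intervals included 1 and a 2-fold difference. *Atp6v0d2* and *Ocstamp* had 5 and 7 UMIs in macrophages and 0 in SCs.

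Other genes of the pathway, listed with earlier results of these data known, showed where macrophages and SCs parted. Of 16 further V-ATPase subunits compared, 7 were at least 2-fold higher in macrophages, among them *Atp6v1b2* (3.01-fold, 2.04 to 4.42), and 0 were lower. All 9 signalling genes compared were higher, for example *Tyrobp* (131-fold) and *Nfatc1* (9.28-fold, 3.88 to 24.5). Among the 9 was *Csf1r*, a marker of the macrophage gate, whose difference that gate fixes. Of 5 protease and adhesion genes, 3 were lower: *Mmp9*, at 0.00264 of its SC level, and *Ctsk*, at 0.0451, were among them. Of 6 genes of ion transport and vesicle traffic 2 were higher and 1, *Slc4a2*, the basolateral chloride and bicarbonate exchanger, was lower. Beside these counts, 12.0% of all 8867 genes compared were at least 2-fold higher and 29.2% at least 2-fold lower. A gene could pass the limit through 1 of the sums alone, so the counts are a description only.

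Acp5-high cells were also set against macrophages of the same library, as a description of a group chosen on *Acp5*. *Ostm1* (11 against 3 UMIs) and *Calcr* (3 against 0) were too low to be compared. All 8 members compared were at least 2-fold higher in Acp5-high cells, beside 14.8% of 4568 genes higher and 17.4% lower. *Acp5* was among the 8, with a ratio that the choice of the cells fixes. *Atp6v0d2* was 99.2-fold higher (42.1 to 308), *Ocstamp* 28.3-fold (13.4 to 72.0), *Dcstamp* 35.2-fold (9.18 to 300) and *Oscar* at least 15.5-fold. *Clcn7* was 10.2-fold higher (3.96 to 33.7), *Car2* 20.2-fold (8.20 to 64.2) and *Tcirg1* 3.49-fold (2.47 to 4.98). A gene high in the small sum of Acp5-high cells could pass the limit of 20 UMIs through that sum alone, so the count is no support for the group.

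The wider pathway was uneven in the same comparison. Of 14 V-ATPase subunits, 11 were at least 2-fold higher in Acp5-high cells, with *Atp6v1b2* at 7.84-fold, and all 5 protease and adhesion genes were, with *Ctsk* at 814-fold and *Mmp9* at 172-fold. Beside these counts, 14.8% of all 4568 genes compared were higher. Here too a gene could enter through the Acp5-high sum alone, so the counts are no support for the group. *Slc4a2* (24.8-fold) and *Snx10* (6.90-fold), a sorting nexin needed for the ruffled border, were higher, while the lysosomal membrane genes *Lamp1* and *Lamp2* were at 0.106 and 0.170 of the macrophage level. Signalling genes divided: 3 were higher and 4 lower, *Trem2* among the lower at 0.283. *Tyrobp* had a ratio of 1.12, and *Csf1r*, a marker of the macrophage gate, had 1.04. Summed over 5 macrophage markers, Acp5-high cells had 727 CPM and macrophages 16192 CPM. The macrophages were gated on these 5 genes, so their high sum follows from the gate.

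Erythroid cells and macrophages had like levels of *Acp5*, with a ratio of 0.890 (0.709 to 1.12), and differed in *Car2*, which was 594-fold higher in erythroid cells (254 to 1831), and in *Tcirg1*, which was at 0.0703 of the macrophage level (0.0184 to 0.192). Of 4944 genes compared, 16.5% were at least 2-fold higher and 38.8% lower in erythroid cells. In the pathway lists, 10 of 15 V-ATPase subunits were lower in erythroid cells and 0 higher, and all 8 signalling genes were lower. The 8 include *Csf1r*, whose difference follows from its use as a macrophage gate marker. *Acp5* UMIs were seen in 39 of 60 erythroid cells, with at most 12 in 1 cell.

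SCs were tested against mpMSCs and against OBs, with sums per library and the library as a block. The tests were quasi-likelihood fits in edgeR, with p-values adjusted by Benjamini-Hochberg over 11931 genes. A gene was called at an adjusted p under 0.05. The 5 rarer genes were too low for the filter on counts. Against mpMSCs 0 of the 5 genes tested passed, beside 2.65% of all genes. At an unadjusted p under 0.05 there was 1 of the 5, *Car2*, and 1509 of all genes, and by the DESeq2 Wald test no member was called either.

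*Car2* had 34.9, 69.8 and 149 CPM in SCs and 24.7, 42.5 and 24.7 CPM in mpMSCs of metaphyseal libraries 1 and 2 and the *Pdgfra-GFP* library. SCs had the higher value in 3 of 3 libraries, by the widest margin in the last. The metaphyseal SC values rested on 5 and 8 UMIs and lay below the 139 and 111 CPM of near-empty barcodes. The log2 difference was 1.93 ± 0.79 (SE, n = 3 libraries, edgeR adjusted p = 0.258), and without the *Pdgfra-GFP* library it was 0.53 (adjusted p = 0.952). *Car2* passed the threshold without a filter on low counts (1.90, adjusted p = 4.84e-08) and when the fit held only these populations (2.03, adjusted p = 0.000727).

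*Tcirg1* had 48.8, 26.2 and 37.4 CPM in SCs and 51.1, 29.1 and 32.5 CPM in mpMSCs. The values interleaved, and the log2 difference was 0.15 with an interval of ±2 SE from -0.38 to 0.67 (edgeR adjusted p = 0.910). *Acp5* had 0, 0 and 9.34 CPM in SCs and 8.80, 6.71 and 10.9 in mpMSCs, a log2 difference of -0.45 ± 0.54 (SE, edgeR adjusted p = 0.845). *Clcn7* (-0.12 ± 0.40) and *Ostm1* (-0.34 ± 0.40) were as close. The 5 genes had a median log2 difference of -0.12, against -0.04 over all genes tested. Of the pathway genes 38 of 41 were tested and 1 passed: *Mmp9* rose by 4.08 ± 0.69 (SE, edgeR adjusted p = 0.00110).

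Against OBs 2 of the 5 genes passed, where 28.4% of all genes did, 14.6% higher and 13.8% lower in SCs. *Acp5* had 0, 0 and 9.34 CPM in SCs and 22.3, 19.9 and 24.7 CPM in OBs, and the groups did not overlap. It was lower in SCs by a log2 difference of -2.83 ± 0.46 (SE, n = 3 libraries, edgeR adjusted p = 3.65e-05). The 0 values allow up to 20.9 and 26.2 CPM, so that the 2 metaphyseal libraries did not by themselves separate the groups. Near-empty barcodes had 13.9, 6.43 and 99.4 CPM of *Acp5*, above the OB value only in the *Pdgfra-GFP* library. Their part in the result was not tested.

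*Tcirg1* had 18.0, 14.6 and 7.24 CPM in OBs, lower than the SC values of the same library in 3 of 3, with a log2 difference of 1.05 ± 0.26 (SE, edgeR adjusted p = 0.00354). It was not called without metaphyseal library 1 (1.08, adjusted p = 0.0510), without the *Pdgfra-GFP* library (0.47, adjusted p = 0.704) or without the library block (0.85, adjusted p = 0.0771). Near-empty barcodes had 79.7, 81.1 and 33.2 CPM of *Tcirg1*, above the SC and OB values in both metaphyseal libraries, and their part in the result was not tested. *Car2* differed by 0.71 ± 0.71, *Ostm1* by 0.57 ± 0.41 and *Clcn7* by 0.24 ± 0.39, none of them called, and without the *Pdgfra-GFP* library *Car2* and *Ostm1* turned to -0.42 and -1.32. The median of the 5 was 0.57, against 1.96e-05 over all genes.

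The scaling between SCs and OBs matters for these values. edgeR's trimmed mean of M values (TMM) centres the typical gene. With sums divided by their total alone, the median of all genes stood at 0.81 and 90.7% of calls were higher in SCs, in place of 51.5%. On that scale *Acp5* still fell by 2.02 (adjusted p = 0.00310), *Tcirg1* differed by 1.85 (adjusted p = 1.66e-05), and *Clcn7* (1.12, adjusted p = 0.0235) and *Ostm1* (1.42, adjusted p = 0.00866) were also called, which makes 4 of 5. Relative to the shift of 0.81, the differences were near those of the first scaling.

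Of the 38 pathway genes tested against OBs, 6 rose and 4 fell, 10 in all, a share below the 28.4% called over all genes. The 4 with the widest differences were *Mmp9* (8.73 ± 0.85), *Itgb3* (2.37 ± 0.54), *Nfatc1* (-1.75 ± 0.55) and *Snx10* (1.69 ± 0.46), each with its SE. Of 16 V-ATPase subunits *Atp6v1a* rose and *Atp6v0a2* and *Atp6v0b* fell. By total counts alone, 20 of the 38 were called, all higher, beside 5970 of 11931 genes, so that the falls of *Nfatc1*, *Fos*, *Atp6v0a2* and *Atp6v0b* rest on TMM. The median of the list was -0.12 with TMM and 0.71 with totals.

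**Figure D4:**
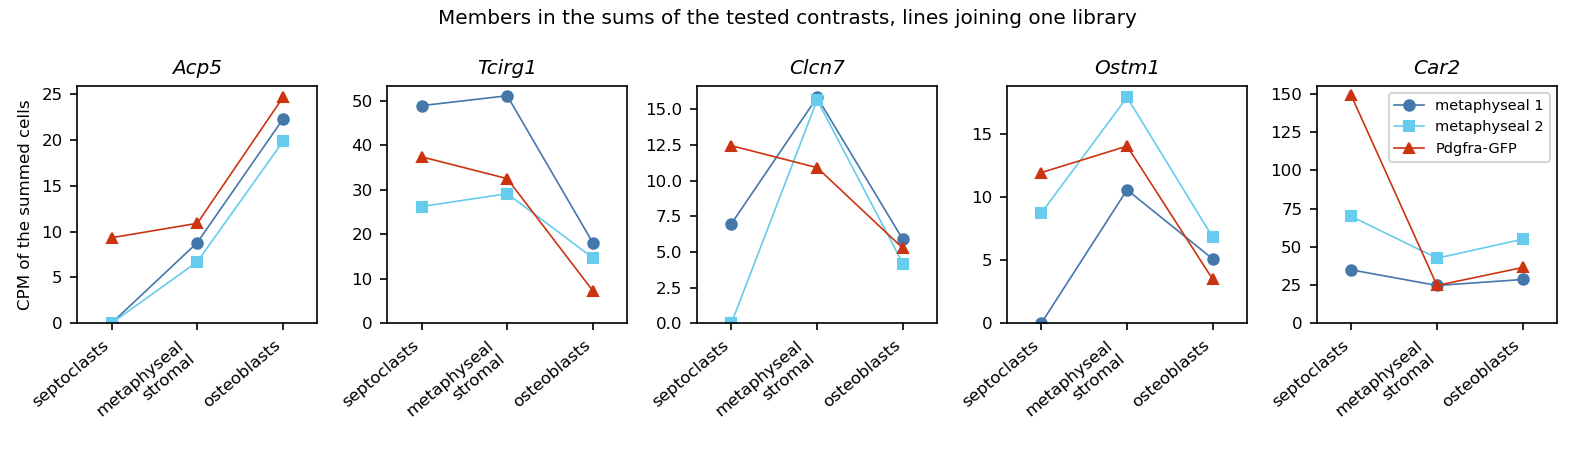
CPM of the summed cells of SCs, mpMSCs and OBs for the 5 genes tested, with lines joining the sums of 1 library. *Acp5* was lower in SCs than in OBs in 3 of 3 libraries and *Tcirg1* higher, and *Car2* was higher in SCs than in mpMSCs in 3 of 3, most so in the *Pdgfra-GFP* library at 149 against 24.7 CPM. The metaphyseal SC sums held 12 and 10 cells, and their *Car2* values rested on 5 and 8 UMIs.

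The share of cells with a UMI depends on depth, and median UMIs per cell in the *Pdgfra-GFP* library ran from 9078 in SCs to 12272 in OBs and 6229 in macrophages. Each cell was therefore thinned to 2000 UMIs, and shallower cells were left out (0 SCs, 0 OBs, 29 mpMSCs, 2 macrophages). *Car2* was seen in 14.2% of thinned SCs (95% exact binomial interval 9.73% to 19.8%; 43.1% unthinned). It was seen in 4.40% of mpMSCs, 6.19% of OBs and 0.487% of chondrocytes, which should lack the gene, and in 95% of erythroid cells. The SC interval lay above those of mpMSCs, OBs and chondrocytes within this library. These intervals count cells, which are not replicates, so the order of the populations has no replicate check. In the edgeR tests over libraries *Car2* was not called against mpMSCs (adjusted p = 0.258) or OBs (adjusted p = 0.519). Near-empty barcodes of the *Pdgfra-GFP* library had 180 CPM of *Car2*, above the 149 CPM of SCs. Their part in these shares was not tested.

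*Acp5* was seen in 0.980% of thinned SCs (0.119% to 3.50%; 7.35% unthinned), which was no higher than in *Lepr*+ cells (1.08%) or mpMSCs (1.78%), and close to the 0.727% of ECs, which should lack the gene. No expression in SCs is read from this share. Macrophages had 37.0% (26.0% to 49.1%), erythroid cells 31.7%, OBs 4.33% and fibroblasts 10.1%. *Tcirg1* was seen in 9.80% of SCs (6.09% to 14.7%), 7.67% of *Lepr*+ cells, 7.02% of mpMSCs, 1.55% of OBs, 23.3% of macrophages and 0 of 60 erythroid cells. *Clcn7* and *Ostm1* were seen in 2.94% and 3.92% of SCs and in 1.24% and 0.619% of OBs.

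**Figure D5:**
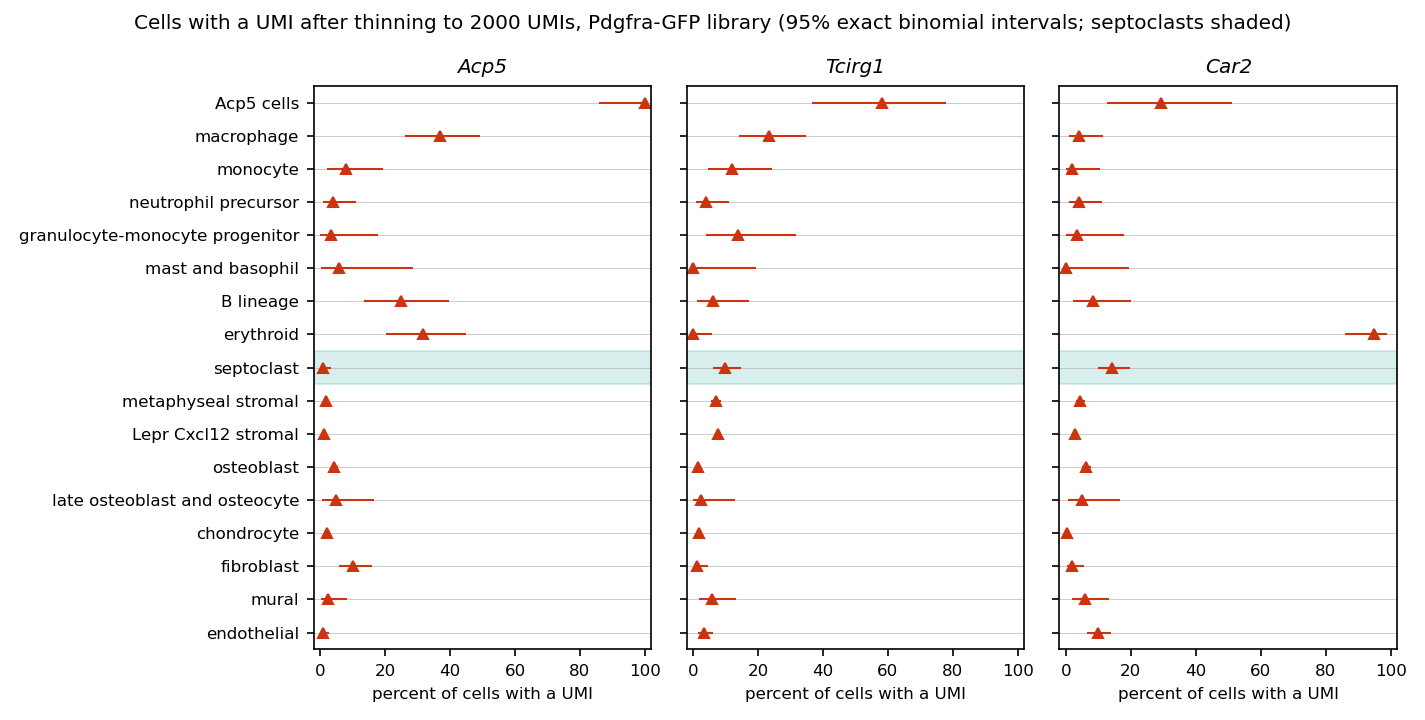
Percent of cells with at least 1 UMI of *Acp5*, *Tcirg1* or *Car2* after each cell of the *Pdgfra-GFP* library was thinned to 2000 UMIs, by population, with exact 95% binomial intervals and SCs shaded. For *Car2* SCs (14.2%) stood above OBs (6.19%) and mpMSCs (4.40%), and for *Acp5* they lay at the low end (0.980%). The intervals count cells of this library and have no replicate check.

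*Car2* UMIs in SCs came from many cells. They were seen in 97 of 226 SCs, and 20 of these, all in the *Pdgfra-GFP* library, had at least 5. Of those 20 cells 19 had *Mmp9* UMIs, 1 had at least 100 UMIs of the haemoglobin gene *Hbb-bs* and 1 had a UMI of *Alas2*, an erythroid enzyme. Summed over 5 erythroid markers, SCs had 0, 0 and 18.7 CPM, mpMSCs 1.76, 2.24 and 4.25, OBs 1.17, 0 and 3.22 and erythroid cells 3164 to 4775 CPM, with *Rhag* at 0 in SCs of all libraries. Among the 3 SC sums, that of the *Pdgfra-GFP* library was highest in both erythroid markers and *Car2*. In the metaphyseal libraries, with these markers at 0, *Car2* had 34.9 and 69.8 CPM. The part of erythroid RNA in the result was not tested.

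Macrophage markers were low in SCs, whereas the osteoclast check list, which includes *Mmp9* and *Ctsk*, was not. Over 5 macrophage markers SCs had 0, 0 and 5.19 CPM, mpMSCs 5.28, 4.47 and 7.09, and OBs 1.17, 1.05 and 4.02, with *Adgre1* at 0 in SCs. The osteoclast check list summed to 3614, 8695 and 10240 CPM in SCs, of which *Mmp9* made up 3412, 8433 and 9985 CPM. *Ctsk* had 174, 244 and 225 CPM in SCs, beside 178, 170 and 231 CPM in mpMSCs. *Itgb3* had 27.9, 8.73 and 25.9 CPM in SCs, beside 42.3, 35.8 and 18.1 CPM in mpMSCs. *Tnfrsf11a* was at 0 in SCs, and so was *Siglec15*, which was at 0 in Acp5-high cells as well. SCs held 65.8% of the *Mmp9* UMIs of all kept cells, and Acp5-high cells of the *Pdgfra-GFP* library had 0.454 of the SC level of *Mmp9* but 36.7 times that of *Ctsk*.

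Genes whose levels went with those of the members over 17 populations were found by Pearson's r of log2(CPM + 10) among 5943 genes, as a description. Nearest to *Acp5* were *Ocstamp* (0.89), *Slc37a2* (0.88) and *Atp6v1d* (0.87), and nearest to *Tcirg1* were *Atp6v1c1* (0.89), *Txnrd1* (0.86) and *Snx10* (0.86). *Clcn7* lay nearest to *Xpr1* (0.87), *Mt3* (0.86) and *Slc9b2* (0.86), and *Ostm1* to *Tbc1d10b* (0.80), *Cdk9* (0.79) and *Tank* (0.78). *Car2* lay near *Ctse* (0.89) and *Rhd* (0.87), genes of erythroid cells. The populations share libraries, and Acp5-high cells, chosen by *Acp5*, are 1 of the 17 points. *Ocstamp* reached the mean of 20 CPM asked of a gene only through these cells, with 403 CPM there and 14.2 CPM in macrophages. Its r with *Acp5* follows from how the cells were chosen and is no support for a link between them.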

How the data were processed

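Cells of 2 metaphyseal libraries and 1 *Pdgfra-GFP* library were analysed. The values are whole-number UMI counts per gene and barcode, and these counts are what the authors deposited. Per the labels, the submitters' processing notes name bcl2fastq, fastp 0.20, STAR 2.7.3a with STARsolo, Cell Ranger and mm10. Positions come from Gencode M21, while the study's annotation was a later release with H2B-GFP added. The counting of UMIs at 3′ ends does not tell isoforms or start sites of a gene apart.

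Barcodes with at least 1500 genes (metaphyseal) or 1000 genes (*Pdgfra-GFP*), no more than 15% mitochondrial and 30% ribosomal UMIs were kept. Cells with at least 20 *Acp5* UMIs were taken out first. Other cells were gated: a marker was positive at 10% or more of the mean of its 100 highest cells and at least 2 UMIs, and a cell joined the class with the highest fraction of positive markers, at least 2 of them. These limits were set after the data were seen. Scrublet (scanpy 1.11.5) called 27, 6 and 165 doublets, which were kept.

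Sums of UMIs were made for each population of 10 or more cells in a library, and SCs were tested with edgeR 4.0.16 (R 4.3.3; TMM, filterByExpr, quasi-likelihood, library as block, Benjamini-Hochberg). Each SE is the absolute log2 difference divided by the square root of the F statistic. It rests on a spread estimated over all gated populations, so intervals from it need not match the p-values. The sums of a library pair because they come from the same cell suspension. Deviations from the population means correlated with those of SCs at r = 0.0867, 0.0707 and 0.371 for mpMSCs and 0.120, 0.0654 and 0.379 for OBs. On simulated counts with 4-fold changes, 200 of 200 changed genes were found against mpMSCs (16 false calls in 11455 genes) and 193 of 200 against OBs (27 in 11502). The changed genes were drawn only from genes above a limit of UMIs in both populations together. The simulated counts had no library effect and reused the spread estimated by the fit. The shares found therefore do not give the power for the members. False calls are set against all genes, and not against the genes called. Tests of macrophages and erythroid cells had been planned with edgeR, but 1 library alone had 10 such cells. Ratios with exact intervals (scipy 1.17.1) are given instead, and at least 2-fold among genes with at least 20 UMIs counts as a difference, with 0 set to 3 UMIs.

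Alternatives were DESeq2 1.42.0, its size factors, no low-count filter, no block, fewer populations, other cell filters and gates, doublets removed, and each library left out. Dividing by totals without TMM was added after the data were seen. The 10 genes and all lists were chosen with earlier results of these data known. Genes named beside them are the called pathway genes with the 4 widest differences and the 3 most correlated genes of each member with at least 500 UMIs, of which 1 is not reported here. In comparisons of a single library, and for markers of cell identity, the pathway genes named were chosen after their values were seen.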

Additional observations from a re-analysis of the deposited data

Results flagged for a closer look

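Barcodes outside the kept cells also held *Acp5*. In the *Pdgfra-GFP* library 3 barcodes with at least 20 *Acp5* UMIs failed a filter and together held 238 *Acp5* UMIs, which lies above the limit that a count of 0 allows. Of these, 1 had 11439 UMIs with 57 of *Acp5*, 9 of *Ctsk*, 9 of *Atp6v0d2* and 39 of *Tyrobp*, and failed on 31.1% ribosomal UMIs. Another had 4245 UMIs with 137 of *Acp5* and 66 of *Ctsk* and failed on 16.5% mitochondrial UMIs. The last had 18172 UMIs with 44 of *Acp5* and 10 of *Ctsk* and failed on 30.1% ribosomal UMIs. They entered no comparison.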

How the results depend on the processing

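Of 271 alternative values, 236 kept their direction and their side of the threshold or their size, 8 no longer passed, 4 newly passed, 3 changed sign and 20 moved. In SCs against mpMSCs the 316 called genes became 180 with the DESeq2 Wald test, 687 without a low-count filter (28261 genes tested), 542 with only the populations compared (7072 genes) and 75 to 178 with 1 library left out. Without the replicate block 54 were called. The count of members called rose from 0 to 1, *Car2*, in the fits without the filter (9 members tested) and with only these populations (2 tested), against 5 tested before. In SCs against OBs the 3385 calls became 5970 with library totals, 2050 without the replicate block and 1584 to 2619 with 1 library left out. The members called numbered 4 with library totals, 1 without the replicate block (*Acp5*, adjusted p = 0.0456) and 1 to 2 with a library left out. With 1 library left out *Car2* against mpMSCs ran from 0.53 to 2.19 and *Tcirg1* from -0.20 to 0.19, and against OBs *Ostm1* ran from -1.32 to 0.59 and *Car2* from -0.42 to 0.87, the low ends without the *Pdgfra-GFP* library and none of them called. Without that library *Itgb3*, *Nfatc1* and *Snx10* against OBs also lost their calls, *Itgb3* did so with DESeq2 (adjusted p = 0.0603) and *Nfatc1* with library totals. With 3 markers per gate, *Car2* in SCs of the *Pdgfra-GFP* library stood at 196 CPM and in 24.6% of thinned cells, and *Tcirg1* in 5.08%. Apart from counts from fewer genes or samples, the cause was not tested. Acp5-high cells numbered 34 at a limit of 10 UMIs and 21 at 40. Fits with at least 20 cells per sum, or with the stricter gate, could not be made because SC sums were left in 1 library. With 1 library there were no blocked or left-out fits for macrophages and erythroid cells. The metaphyseal SC sums, of 12 and 10 cells, limit every level in them.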
